A study of Mus musculus with 4 samples.

Results

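Intergenic KAP1 summits close to genes are 1565 positions on mouse chromosomes 1 to 19, out of 7641 positions at which both KAP1 samples had a summit (20.5%, Wilson 95% interval 19.6 to 21.4%). A summit is the position of highest enrichment within a ChIP-seq peak. A position was taken from the replicate 1 list when replicate 2 had a summit within 200 bp. It belonged to the group when it lay outside every protein-coding gene and 1001 to 20000 bp from the nearest start or end coordinate of such a gene. The remaining shared summits lay within 1 kb of a gene end (1717), deeper inside a gene (3328) or more than 20 kb from any coding gene (1031). The members were chosen by the summit positions of both samples, so their number and their sharing between samples are a description and not a finding.

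KAP1 was precipitated from regulatory T cells of the spleen of C57BL/6 mice, which had been sorted and expanded in culture for 2 weeks, with the antibody labelled 1Tb-A9. The series has 2 such samples and 2 input samples of the same cells without antibody, which have no summit list and were not analysed here. The labels give no age, allele or treatment, and do not say whether the samples came from separate cultures or animals, so differences between them may be technical. The lists held 8862 summits in replicate 1 and 79515 in replicate 2, and their read depth is unknown. Summit positions carry no expression values, so the labelled cell type could not be checked against marker levels, and with 1 group of 2 samples no test between conditions was made.

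KAP1, the product of Trim28, is a corepressor without a DNA-binding domain of its own. KRAB zinc finger proteins bring it to DNA, where it assembles the histone methyltransferase SETDB1, heterochromatin protein 1 and histone deacetylases, and it is best known for silencing transposable elements. DNA between genes and near them holds many of the enhancers that act on neighbouring genes. Regulatory T cells depend on the transcription factor Foxp3 and hold other immune cells in check, and mice whose T cells lack KAP1 develop autoimmunity.

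Sequence was available where a summit fell in the start window of a noncoding gene, which runs from 250 bases before to 50 bases after a start annotated by RefSeq on GRCm38.p6. Such windows of 14 long noncoding RNA (lncRNA) genes held 13 of the summits. The windows with the highest-ranking summits are shown 5′ to 3′ on the strand of the lncRNA, because they are places where the bases under a summit can be read. Capitals mark the summit base of replicate 1 with 10 bases on either side.
I730030J21Rik, chr15:100732688-100732987, minus strand: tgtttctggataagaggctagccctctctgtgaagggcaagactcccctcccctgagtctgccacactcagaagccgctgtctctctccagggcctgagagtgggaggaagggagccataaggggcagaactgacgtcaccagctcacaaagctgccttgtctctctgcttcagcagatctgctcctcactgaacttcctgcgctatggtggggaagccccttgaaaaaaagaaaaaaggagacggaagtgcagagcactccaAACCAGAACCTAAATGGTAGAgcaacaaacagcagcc
Gm34755, chr6:128798459-128798758, plus strand: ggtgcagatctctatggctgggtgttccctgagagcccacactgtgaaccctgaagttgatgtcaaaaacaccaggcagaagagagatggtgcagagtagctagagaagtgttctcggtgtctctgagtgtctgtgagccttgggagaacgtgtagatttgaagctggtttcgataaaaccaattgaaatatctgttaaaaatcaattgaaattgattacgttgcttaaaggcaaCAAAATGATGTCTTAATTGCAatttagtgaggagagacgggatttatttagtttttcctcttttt
Gm46521, chr15:80225351-80225650, plus strand: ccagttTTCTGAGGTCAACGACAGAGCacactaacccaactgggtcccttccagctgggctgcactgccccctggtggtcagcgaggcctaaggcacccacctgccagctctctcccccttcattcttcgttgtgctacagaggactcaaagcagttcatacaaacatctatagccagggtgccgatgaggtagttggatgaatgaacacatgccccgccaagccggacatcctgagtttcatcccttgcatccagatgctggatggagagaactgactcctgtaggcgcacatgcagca
Gm41874, chr19:57404215-57404514, plus strand: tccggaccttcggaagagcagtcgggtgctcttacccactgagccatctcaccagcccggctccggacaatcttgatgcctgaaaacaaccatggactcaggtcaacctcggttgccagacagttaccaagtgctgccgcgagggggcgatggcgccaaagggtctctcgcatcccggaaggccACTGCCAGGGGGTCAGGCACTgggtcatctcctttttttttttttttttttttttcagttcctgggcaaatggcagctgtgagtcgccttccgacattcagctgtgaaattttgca
F730311O21Rik, chr1:132341667-132341966, plus strand: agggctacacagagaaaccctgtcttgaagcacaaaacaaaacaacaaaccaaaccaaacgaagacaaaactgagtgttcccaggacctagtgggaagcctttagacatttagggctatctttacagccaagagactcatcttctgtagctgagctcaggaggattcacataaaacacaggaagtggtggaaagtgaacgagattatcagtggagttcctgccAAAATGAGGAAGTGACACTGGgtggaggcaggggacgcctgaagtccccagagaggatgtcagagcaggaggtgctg

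The summit in the I730030J21Rik window lay 23 bases after the lncRNA start and 3338 bp from Galnt6, a glycosyltransferase gene that starts O-linked chains. The peak caller's score there was 23.9 in replicate 1 and 41.9 in replicate 2; it is the authors' value for the peak, a −log10 p or q, and compares sites within a list. The Gm34755 summit lay 5 bases before the start, 10063 bp upstream of Klrb1c, a killer cell lectin-like receptor gene, and scored 20.5 and 36.6. Both thus lay within 25 bases of an annotated lncRNA start. The Gm46521 summit lay 234 bases before the start, 8597 bp upstream of Mief1, a mitochondrial dynamics gene (17.0 and 19.3). The Gm41874 summit lay 56 bases before the start (13.1 and 33.5), and the F730311O21Rik summit lay 17 bases before it (10.7 and 13.6). Over the 14 windows, 6 summits lay within 25 bases of the start.

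A set of 3 motifs was searched in the windows on both strands, without regard to overlap between motifs. The AP-1 letters TGANTCA were in 2 of the 14 windows (Gm9875 and LOC115489947), against 7.84% of all 31396 start windows on these chromosomes and 9.25% of those of lncRNA genes. The ETS letters CCGGAAG were in the Gm41874 window alone, against 9.0% of all windows and 3.91% of lncRNA windows. The Runx letters TGTGGTT were in the Gm33701 window alone, against 5.32% and 6.30%. With 14 windows, a single match is too few to set against these shares. The median GC content of the 14 windows was 52.6%, with a range from 34.3 to 63.3%, against 48.3% over lncRNA windows and 53.0% over all windows. Few lncRNA start windows held a summit, in this location and over all locations. Of 1853 lncRNA genes with a start window between 1 and 20 kb from coding genes, 14 held a summit (0.756%). Of all 9291 lncRNA genes with a start window, 82 held a shared summit of any location (0.883%). The share was 3.43% of 16457 coding genes, whose starts lie at gene ends, which the rule leaves out.

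Density of the summits fell with distance from genes. The sequence between 1 and 20 kb from coding genes, computed from the gene table and including any unknown bases, came to 336 Mb and held 4.66 summits per Mb. From 1 to 2 kb there were 246 summits, or 8.21 per Mb. From 2 to 5 kb there were 394 (5.17 per Mb), from 5 to 10 kb 424 (4.37 per Mb) and from 10 to 20 kb 501 (3.77 per Mb). The most crowded class was thus the one nearest to genes, although most summits lay farther out, at a median distance of 6335 bp (quartiles 2917 and 11852 bp). The fall continued beyond the limits of the group, from 58.0 per Mb in the first 200 bp outside genes to 2.34 per Mb at 20 to 50 kb. Each replicate's own list fell in the same order, from 9.65 to 4.36 per Mb in replicate 1 and from 52.5 to 33.7 per Mb in replicate 2 between the nearest and the farthest class of the group.

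**Figure D1:**
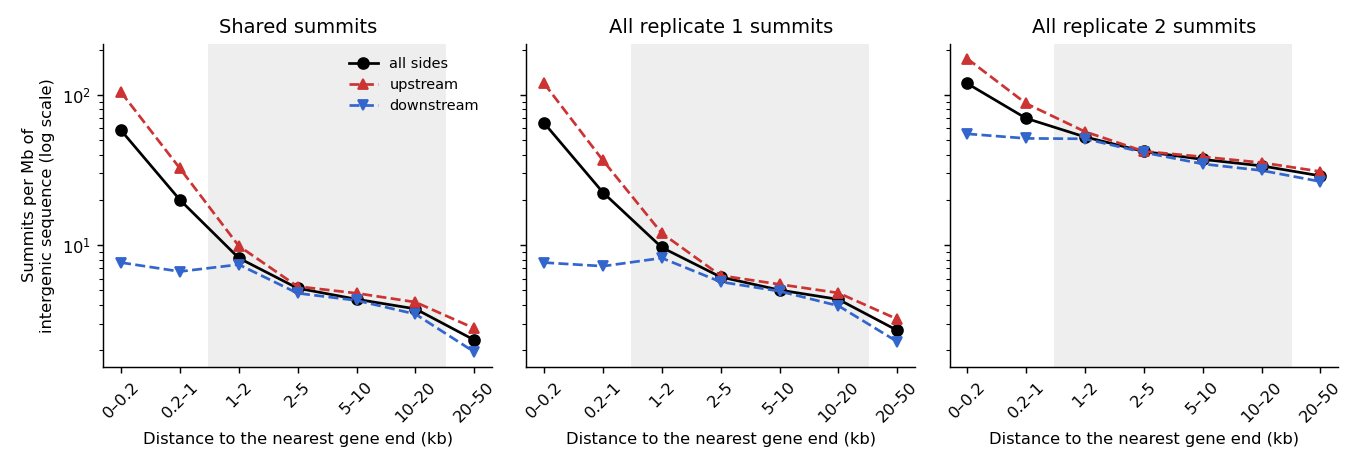
Summits per Mb of intergenic sequence (log scale) against distance to the nearest coding gene end (kb), for shared summits, all replicate 1 summits and all replicate 2 summits. Black points are all genes and the dashed lines split genes of known strand into the upstream and downstream side; the grey band is 1 to 20 kb, where the lines for both sides run close together after lying far apart within 1 kb.

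Summits were somewhat denser upstream of genes than downstream. The strand of the nearest gene was known for 1267 summits. Of these, 730 lay upstream of the gene's start and 537 downstream of its end (57.6% upstream, Wilson 95% interval 54.9 to 60.3%). More sequence lies upstream (143 Mb against 122 Mb), and per Mb the densities were 5.10 and 4.39, a ratio of 1.16. The ratio was 1.33 at 1 to 2 kb, 1.11 at 2 to 5 kb, 1.12 at 5 to 10 kb and 1.20 at 10 to 20 kb. Over all replicate 2 summits, the ratios in these classes were 1.11, 1.02, 1.11 and 1.13. Within 200 bp of genes, outside the group, shared summits were 13.6 times as dense upstream as downstream, and from 201 to 1000 bp 4.85 times. At 20 to 50 kb, also outside the group, the ratio was 1.43, higher than in any class of the group. Upstream summits had a median score of 8.34 in replicate 1 and 13.1 in replicate 2, and downstream summits 7.64 and 11.2.

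Counting by the orientation of the neighbouring genes shows the same contrast for the same summits. By definition, summits between divergent genes lie upstream and those between convergent genes downstream. Of 2313 intergenic stretches between divergent genes, whose starts face each other, 11.6% held a summit of the group (10.4 to 13%). The share was 7.33% of 6286 stretches between genes in tandem and 6.17% of 2108 stretches between convergent genes (5.22 to 7.28%). Divergent stretches are longer, with a median of 32606 bp against 16014 bp for convergent stretches. Per Mb of sequence in the location, the densities were 5.66, 4.28 and 3.90. A further 5028 stretches had no orientation assigned. They held 530 of the summits, or 4.85 per Mb.

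Scores spread over most of the range of both lists. The whole lists ran from 1.32 to 147 in replicate 1 and from 2.07 to 154 in replicate 2. In replicate 1 the lowest score of the group was 1.32, the median 8.34 and the highest 110.1. In replicate 2 these values of the group were 3.29, 12.4 and 154. Replicate 1 scores took only 298 distinct values over the 1565 summits, with 165 summits at 5.10 and 104 at 8.34, so that many ranks in that list were tied. The medians of shared summits at gene ends were 8.34 and 12.8, those in gene bodies 8.34 and 12.3, and those of distal summits 7.64 and 11.6. Strength therefore varied far more within the group than between locations. Within the group, scores were somewhat higher nearer to genes: the median replicate 2 score was 13.5 at 1 to 2 kb, 13.2 at 2 to 5 kb and 11.6 in both farther classes. The trend did not hold at all distances outside the group. There the median was 11.6 in the first 200 bp, 15.6 from 201 to 1000 bp and 11.6 at 20 to 50 kb. Summits with a mean percentile rank of 90 or more made up 19.9% of the nearest class of the group and 13.6% of the farthest. At 20 to 50 kb, outside the group, they made up 17.1%, and in the first 200 bp 22.8%.

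Paired summits were a median of 6 bp apart, 201 pairs coincided and 1458 (93.2%) lay within 50 bp. The median was also 6 bp in each of the other locations, where 91.6 to 93.2% lay within 50 bp. Of the 1824 replicate 1 summits in this location, 85.8% had a partner (84.1 to 87.3%), against 87.0% of all replicate 1 summits on these chromosomes; the rule used this pairing, so nothing is read from these distances and shares. The 259 replicate 1 summits without a partner had a median score of 5.10. Replicate 2 had 11299 further summits in the location, with a median score of 8.45. Across the 1565 pairs, which share their libraries, the Spearman rank correlation of the scores was 0.751. Both scores were at or above the median of their list in 843 cases and both below it in 409, while 258 summits were high in replicate 2 only and 55 high in replicate 1 only.

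**Figure D2:**
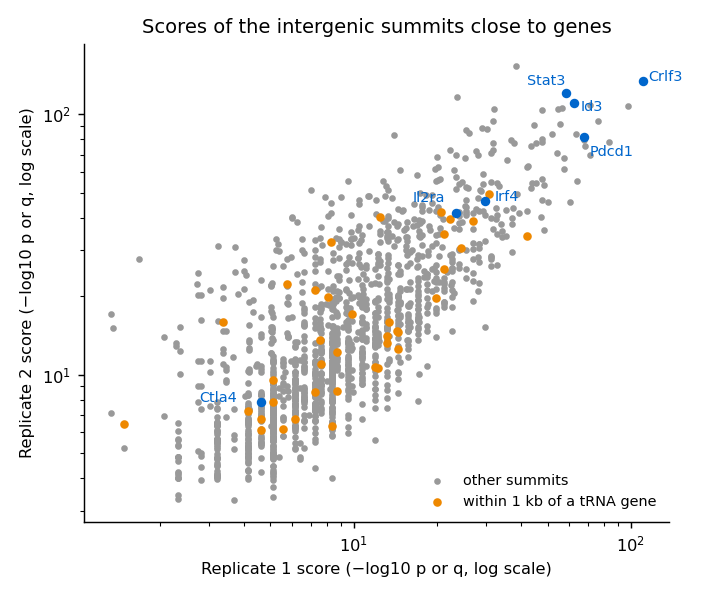
Replicate 2 score against replicate 1 score (−log10 p or q, both axes logarithmic) for each of the 1565 summits. Orange points lie within 1 kb of a tRNA gene and blue points are the highest-scoring summit nearest to each named gene; Crlf3, Stat3, Id3 and Pdcd1 stand at the upper right, and Ctla4 (4.61 and 7.82) lies among the low scores.

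At the limits of the rule, scores ran from low to high. The summit just inside the lower limit lay 1004 bp from Sbf1 (9.50 and 11.5), and the shared summit just outside it lay 994 bp from Zbtb8os (5.10 and 8.31). At the upper limit, a summit 19995 bp from Igsf5 was the last inside (19.8 and 26.4) and a summit 20097 bp from Ptpn1 the first outside (17.0 and 18.9). The widest accepted pair, by Ildr1, was 200 bp apart (4.61 and 7.32). The closest rejected pair, by Slfn5, was 217 bp apart (1.32 and 24.8).

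The strongest summits lay by genes of several kinds, lymphocyte regulators among them. The nearest gene is named as a landmark; which gene a summit acts on is not known. At the top stood a summit 3358 bp downstream of Crlf3, a cytokine receptor-like factor gene, at position 80043135 of chromosome 11 in mm10; it scored 110.1 in replicate 1 and 134 in replicate 2. Next came a summit at position 148495388 of chromosome 5 by Ubl3, a gene for a membrane-anchored ubiquitin-like protein, 9243 bp downstream (97.8 and 108). Among the genes known for roles in T cells, Pdcd1, which encodes the inhibitory receptor PD-1, had a summit 2763 bp downstream of its end, at position 94035542 of chromosome 1 (67.6 and 81.6). Id3, which encodes an inhibitor of E protein transcription factors in lymphocytes, had a summit 4498 bp downstream, at position 136149890 of chromosome 4 (62.2 and 110.4). Stat3, which encodes the transcription factor downstream of interleukin-6 and interleukin-10 receptors, had a summit 8107 bp upstream, at position 100947701 of chromosome 11 (58.3 and 120.3). Neither Pdcd1 nor Id3 had a shared summit at an end or in its body, so the intergenic summit was their only kind, while Stat3 also had a summit at an end.

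Other members of the top 15 lay by genes with housekeeping or varied roles. Sf3b5, a splicing factor subunit gene, had a summit at 11138 bp (76.2 and 94.4). Cd82, a tetraspanin gene, had a summit 8437 bp upstream (83.1 and 78.0), and Usp3, the gene of a histone deubiquitinase, had a summit 6552 bp upstream (71.4 and 108). All of these ranked near the top of both lists. Sub1, a transcriptional coactivator gene, had a summit 14126 bp upstream (68.3 and 75.8), and Ankrd9, an ankyrin repeat gene, had a summit 12567 bp upstream (71.0 and 69.5). Lgals7, a galectin gene, and Arhgef3, a guanine nucleotide exchange factor gene, had summits 1599 and 1731 bp downstream (67.6 and 79.8; 63.1 and 84.1). The last 3 were 8335 bp upstream of Grifin, a galectin-related gene (56.6 and 106), 4014 bp upstream of Ube2s, a ubiquitin-conjugating enzyme gene of mitosis (55.6 and 91.7), and 1266 bp upstream of C1galt1, which builds the core of O-linked glycans (54.7 and 105). Of the 15 summits, 8 lay upstream, 6 downstream and 1 by a gene whose strand was not in the table. Chosen after its value was seen, a summit 11638 bp from Csnk1a1, a casein kinase gene on chromosome 18, had the highest replicate 2 score of the group, 154, with 38.5 in replicate 1.

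The summits were the nearest to 1340 of 20665 coding genes (6.48%). Most of these genes had a single summit: 1141 had 1, 175 had 2, 22 had 3 and 2 had 4. The genes with 4 were Il2ra and Abt1. Il2ra encodes CD25, a chain of the receptor for interleukin-2, the cytokine that keeps regulatory T cells alive. Its strongest intergenic summit lay 19395 bp upstream, at position 11623397 of chromosome 2 (23.3 and 41.7). A summit 7826 bp upstream had 9.37 and 18.2, a summit 6784 bp upstream 7.25 and 4.37, and a summit 4717 bp downstream 6.59 and 8.41. The Il2ra summits thus lay on both sides of the gene and ranged from the 99.0 to the 2.56 percentile of replicate 2, and the gene also had a shared summit at an end. Abt1, a gene for an activator of basal transcription, lies among tRNA and histone genes on chromosome 13. It had summits 8809, 12509 and 14449 bp upstream and 16565 bp downstream, with replicate 1 scores of 42.1, 13.2, 14.3 and 7.27. All 4 Abt1 summits lay inside or within 1 kb of a tRNA gene.

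**Figure D3:**
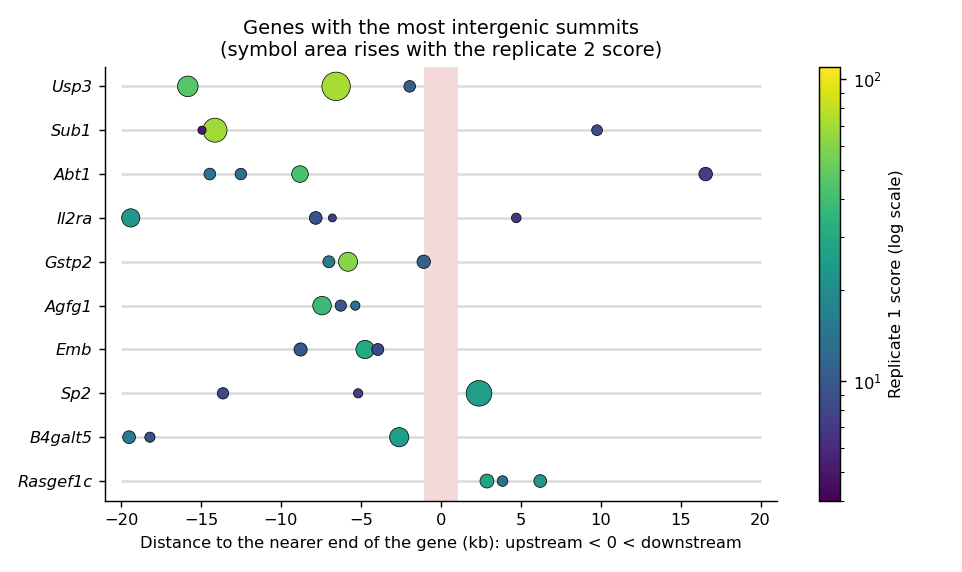
Position of each intergenic summit relative to the nearer end of its nearest gene (kb; upstream negative, downstream positive) for the 10 genes with the most summits. Colour gives the replicate 1 score on a log scale, symbol area rises with the replicate 2 score, and the shaded strip marks the 1 kb around the gene that the rule leaves out; the 3 summits of Usp3, Gstp2, Agfg1, Emb and B4galt5 lie upstream only, and those of Rasgef1c downstream only.

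Of the genes with 3 summits, Usp3 had the highest scores, with a further summit 15827 bp upstream (45.3 and 54.4). Gstp2, a glutathione S-transferase gene, had summits 5804, 7004 and 1071 bp upstream, with replicate 1 scores of 60.3, 15.7 and 10.8. Agfg1, an Arf GTPase-activating protein gene, had a run of summits 5349, 6257 and 7430 bp upstream, of which the farthest was the strongest (37.7 and 43.5). Emb, which encodes the cell surface glycoprotein embigin, had its strongest 4738 bp upstream (29.4 and 42.6). Sp2, a zinc finger transcription factor gene, had its strongest 2389 bp downstream (25.4 and 86.9). B4galt5, a galactosyltransferase gene, had its strongest 2605 bp upstream (25.4 and 46.7), and Rasgef1c, a Ras exchange factor gene, had its strongest 2884 bp downstream (28.3 and 22.4). In Usp3, Gstp2, Agfg1, Emb, Sp2, B4galt5 and Rasgef1c, and in Sub1, the same summit led in both replicates. In proportion, the replicate 1 lead was large in Sub1 (68.3 against 8.72) and Gstp2 (60.3 against 15.7). It was smaller in Usp3 (71.4 against 45.3) and B4galt5 (25.4 against 15.8). The summits of Rasgef1c were closer together (a next of 22.5 and 18.2).

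Counted by intergenic stretch, 1282 of 15735 stretches with sequence in the location (8.15%) held a summit, and 6 held 4, which was the most. These 6, named after their counts were seen, lay between Rbm17 and Il2ra, Sephs2 and Itgal, H2-DMb1 and Psmb9, B4galt5 and Slc9a8, Pcbp1 and Gm46963, and Plac8 and Coq2. In the stretch of 39592 bp between Rbm17 and Il2ra, the fourth summit lay 16338 bp from Rbm17, a splicing factor gene (3.38 and 12.5). H2-DMb1 and Psmb9 lie in the major histocompatibility complex and serve antigen presentation; their stretch of 21800 bp held summits with replicate 1 scores of 17.0, 14.6, 5.10 and 11.5. The summits by Pcbp1, an RNA-binding protein gene, included a site 10741 bp from Gm46963 whose replicate 2 score was 117 against 23.6 in replicate 1.

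Fewer of these summits stood alone than in the other locations. Of the 1565 summits, 49.8% had no other shared summit of any location within 20 kb, against 60.3% of gene end summits, 53.7% of gene body summits and 63.8% of distal summits. At least 3 others lay within 20 kb of 111 summits (7.09%), against 3.73% at gene ends, 5.29% in gene bodies and 2.91% of distal summits. The median distance to the nearest shared summit was 19773 bp, the shortest of the 4 locations. Part of the contrast with distal summits is set by the rule. Distal summits lie more than 20 kb from coding genes, so no summit inside such a gene can be within 20 kb of them. The differences between locations were not tested, since summits in 1 region are not independent.

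Genes next to an intergenic summit also carried KAP1 themselves more often. A shared summit lay within 1 kb of an end in 204 of the 1340 nearest genes (15.2%, Wilson 95% interval 13.4 to 17.2%), against 8.51% of the other 19325 genes and 8.94% of all coding genes. In the body, the shares were 23.8% (21.6 to 26.2%) and 10.6%, with 11.5% over all coding genes. The nearest genes were longer, with a median of 21322 bp against 17224 bp, and neither the difference nor the part of gene length in it was tested. Still, 879 of the 1340 genes (65.6%) had no shared summit of their own at an end or in the body.

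Genes of T cell surface receptors and their signalling were often the nearest gene. The lists below were chosen with earlier results of these data known, overlap in part, and were not tested for enrichment. Each share is set beside the 6.48% over all coding genes. Together, the 5 lists of regulatory T cell signature, T cell identity, cytokine receptor and JAK-STAT, costimulation and TNF receptor, and chemokine receptor and trafficking genes held 139 genes, 19 of them in more than 1 list, and 46 (33.1%) had a summit. The conventional T cell list (2 of 23, 8.70%) was not pooled with them. Over all 13 lists other than Zfp, ribosomal protein and olfactory receptor genes, called the named lists below, 63 of 287 genes (22.0%) had a summit. At gene ends, outside the group, 8.94% of all coding genes had a shared summit. That share was 26.8% for regulatory T cell, 29.6% for T cell identity, 33.3% for cytokine receptor and 37.0% for costimulation genes. It was 8.33% for trafficking genes. Apart from trafficking, nearness to these lists was thus not particular to the intergenic summits.

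Among costimulatory and TNF receptor genes, 11 of 27 were the nearest gene of a summit (40.7%, Wilson 95% interval 24.5 to 59.3%). Pdcd1 led, followed by Tnfrsf9, the gene of the costimulatory receptor 4-1BB, with a summit 2638 bp upstream of its start (25.4 and 41.8). A weaker summit 18863 bp downstream of Tnfrsf9 (5.10 and 11.1) lay 74 bp from the small nuclear RNA gene Gm23405. Traf5 and Traf1, which encode adaptors of TNF receptors, had summits 1436 bp downstream (17.0 and 19.4) and 1628 bp upstream (14.4 and 15.3). Ctla4, which encodes the inhibitory receptor for B7 ligands, had a weak summit 4954 bp downstream (4.61 and 7.82). The gene also had a shared summit at an end.

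Cytokine receptor and JAK-STAT genes had a summit in 14 of 39 cases (35.9%, 22.7 to 51.6%), with 20 summits in all. Behind Stat3 came Tgfbr1, a TGF-beta receptor gene, with a summit 1653 bp upstream at position 47351569 of chromosome 4 (37.4 and 38.0), then Il2ra. Ifngr1, an interferon-gamma receptor gene, had a summit 9856 bp upstream (23.1 and 20.6). The scores of the list ran from 3.21 to 58.3 in replicate 1 and from 4.19 to 120.3 in replicate 2, so strong and weak sites stood side by side.

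Regulatory T cell signature genes had a summit in 13 of 41 cases (31.7%, 19.6 to 47.0%). No shared summit lay at an end of 8 of the 13, against 84.8% of all nearest genes. Irf4, which encodes a transcription factor of effector regulatory T cells, had a summit 1445 bp upstream of its start, at position 30747788 of chromosome 13 (29.8 and 46.3). Ccr8, a chemokine receptor gene of activated regulatory T cells, had a summit 11802 bp upstream (22.2 and 28.8). Ikzf2, the gene of Helios, had none in this location but had a shared summit in its body. Trim28 itself had none in this location, at an end or in its body. Foxp3 lies on chromosome X and is outside the rule.

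T cell identity genes had a summit in 10 of 27 cases (37.0%, 21.5 to 55.8%). Lat, the scaffold of T cell receptor signalling, had a summit 5839 bp downstream (17.6 and 38.9). Cd2, an adhesion receptor gene, had a summit at 7648 bp (12.4 and 27.2). Cd5, an inhibitor of T cell receptor signalling, had summits 13557 and 14907 bp upstream, with replicate 2 scores of 15.7 and 6.69. Thy1, a T cell surface glycoprotein gene, had summits at 5396 and 12056 bp, with replicate 2 scores of 21.9 and 4.22. Of the 12 summits by these genes, 10 lay more than 5 kb away, against 59.1% of all 1565 summits.

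Trafficking genes had a summit in 8 of 24 cases (33.3%, 18 to 53.3%). None of the 8 had a shared summit at an end, near the 84.8% of all nearest genes without one. They included both chains of the integrin LFA-1. Itgb2 had a summit at 1359 bp (17.0 and 17.8), and Itgal had summits at 10900, 8138 and 3821 bp, with replicate 1 scores of 14.4, 8.34 and 5.56. Ccr7, the lymph node homing receptor gene, had summits at 13242 and 15868 bp (7.25 and 12.3; 5.10 and 7.51). Conventional T cell genes, a list to which Ccr7 also belongs, had a summit in 2 of 23 cases (8.70%, 2.42 to 26.8%). The other was S1pr1, which guides T cells out of lymph nodes, with 5.10 and 6.41.

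Transcription factor genes of the AP-1, NFAT and NF-kappaB families had a summit in 7 of 25 cases (28.0%, 14.3 to 47.6%). Bcl3, an NF-kappaB cofactor gene, and Nfkbia, which encodes the inhibitor of NF-kappaB, had summits 11311 and 13473 bp upstream (14.4 and 19.9; 13.2 and 23.0). Jund, an AP-1 subunit gene, had summits 3092 and 6318 bp upstream (7.53 and 14.7; 7.25 and 7.72). Maf had a summit at 1502 bp that was weak in replicate 1 (5.92) and stronger in replicate 2 (28.3).

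Cell cycle genes had a summit in 8 of 32 cases (25%, 13.3 to 42.1%). E2f2, a transcription factor gene of S phase entry, had a summit 3992 bp downstream (28.3 and 42.6). Ccnd2, the cyclin D2 gene, had a summit at 2634 bp (17.0 and 28.9), and Cdk1, the mitotic kinase gene, had a summit 13778 bp downstream (17.0 and 26.0). Ccne1, the cyclin E1 gene, had summits 3432 and 6840 bp downstream (8.34 and 11.7; 8.34 and 6.44). Of the 10 summits by cell cycle genes, 8 lay within 5 kb, against 40.9% of all 1565 summits.

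**Figure D4:**
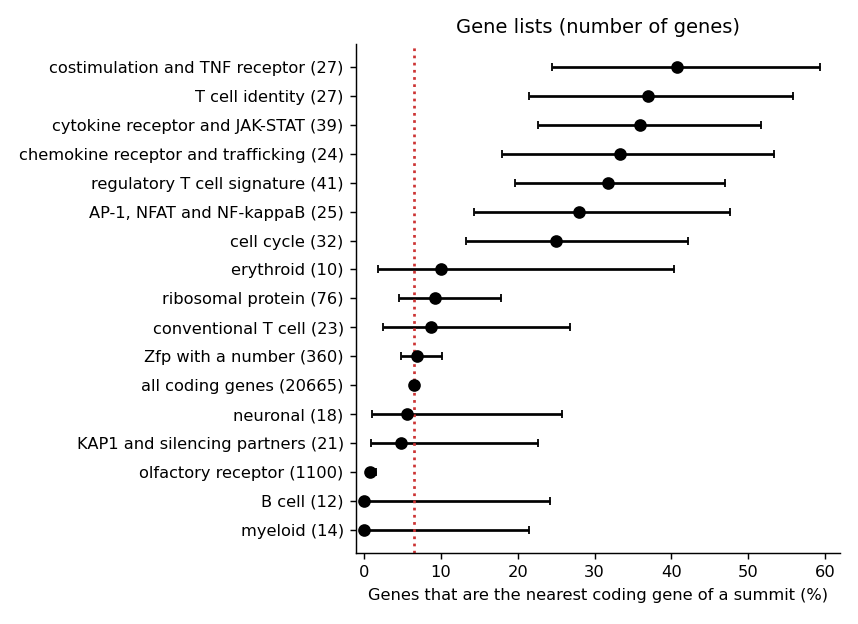
Percentage of genes in each list that are the nearest coding gene of an intergenic summit, with 95% Wilson intervals; the number of genes is in parentheses and the dotted line is the 6.48% over all coding genes. The intervals of the upper 7 lists, from 25 to 40.7%, lie above the line, and that of olfactory receptor genes lies below it.

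The summits by these lists were mostly of middling rank, despite Pdcd1 and Stat3. The median mean percentile rank was 58.1 for the regulatory T cell list, 58.6 for T cell identity, 46.2 for cytokine receptors, 45.8 for costimulation and 51.7 for trafficking, against 66.2 over all 1565 summits. Per Mb of their own flanks, the same lists held 22.8, 19.5, 29.0, 20.8 and 26.3 summits, against 4.66 overall. With replicate 2 alone, 38.6% of all coding genes had a summit in the location. The corresponding share was 70.7% of the regulatory T cell list, 77.8% of T cell identity, 66.7% of cytokine receptors, 85.2% of costimulation, 62.5% of trafficking and 78.3% of conventional T cell genes. For the conventional T cell list, the share by nearest gene in replicate 1 was 13%, against 7.07% of all coding genes. Counted within 20 kb, 17.4% of that list had a shared summit of the group, against 10.4%, and 30.4% had a shared summit at an end, against 8.94%. The difference between lists was not tested.

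The lists of markers of other cell types were too short to set apart from the background. None of 12 B cell genes (Wilson upper limit 24.2%) and none of 14 myeloid genes (21.5%) was a nearest gene. Among 10 erythroid genes only Tfrc, the transferrin receptor gene that proliferating cells also use, had a summit, 14811 bp upstream (4.17 and 8.31), and among 18 neuronal genes only Gad1, a glutamate decarboxylase gene, did (4.17 and 5.92). With replicate 2 alone, the shares were 33.3% of B cell, 21.4% of myeloid, 40.0% of erythroid and 44.4% of neuronal genes, against 38.6% of all coding genes.

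Zinc finger genes named Zfp with a number, many of which encode KAP1-recruiting KRAB proteins, had a summit in 25 of 360 cases (6.94%, 4.75 to 10.1%), close to the share of all genes. The strongest lay 12910 bp upstream of Zfp629 (26.8 and 41.7), 3991 bp upstream of Zfp324 (26.8 and 36.3), 4196 bp downstream of Zfp689 (21.1 and 22.8) and 5806 bp upstream of Zfp541 (17.2 and 16.6). All 4 are on chromosome 7. Of 21 KAP1 and silencing partner genes, only Chd3, which encodes a remodelling ATPase of the NuRD complex, had summits, at 2592 and 3355 bp (26.8 and 19.1; 15.7 and 12.5). When every coding gene with a summit of the group within 20 kb of an end was counted, not the nearest alone, the number was 5 of 21 (23.8%, against 10.4% of all coding genes). Ribosomal protein genes had a summit in 7 of 76 cases (9.21%, 4.53 to 17.8%), and 27.6% had a shared summit at an end, against 8.94% of all coding genes. Counted within 20 kb, 16 of 76 had a summit (21.1%, against 10.4%). Rps13 had a summit 3507 bp downstream (16.8 and 27.7), and Rpl3, Rpl14 and Rpl8 followed with replicate 2 scores of up to 13.1. Olfactory receptor genes, which serve the sense of smell, had a summit in 9 of 1100 cases (0.818%, 0.431 to 1.55%), led by Olfr282 at 19950 bp (17.2 and 39.3). The summits nearest to Olfr1423 and Olfr279 lay 9207 and 6206 bp downstream. The summit by Olfr750 lay 12 bp from n-TTtgt3, a threonine tRNA gene (12.2 and 10.6).

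Genes for small RNAs marked some of the densest points of the location. Transfer RNA genes are transcribed by RNA polymerase III from promoters inside the gene. Within 1 kb of nuclear tRNA genes lay 38 summits (2.43%, Wilson 95% interval 1.77 to 3.32%), whereas these surroundings made up 0.0889% of the sequence. Their density was 127 per Mb (exact Poisson interval 90 to 175, counting error only), against 4.66 overall. The median distance to the tRNA gene was 185 bp, 22 summits lay within 200 bp and 10 within 50 bp. Of these summits, 14 lay on chromosome 13, which carries 105 of the 391 tRNA genes on these chromosomes, so many share a cluster. Of the 194 tRNA genes in the location, 53 (27.3%) had a summit within 1 kb, against 19.2% of all 391 tRNA genes with a shared summit of any location.

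Scores at tRNA genes covered much of the range of the group. The lowest, median and highest were 1.48, 9.29 and 42.1 in replicate 1 and 6.13, 14.4 and 49.3 in replicate 2. The strongest lay 315 bp from n-TYgta7, a tyrosine tRNA gene (42.1 and 34.0), and is the summit 8809 bp from Abt1 described above. Next came n-TVcac6, a valine tRNA gene, at 772 bp (30.8 and 49.3), and n-TDgtc5, an aspartate tRNA gene, at 17 bp (26.8 and 38.8). The last pair belong to 1 cluster by Cfap126 on chromosome 1.

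**Figure D5:**
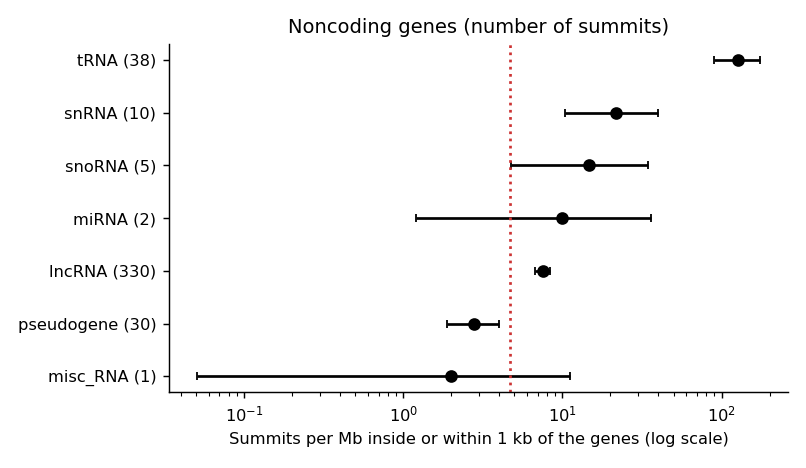
Intergenic summits per Mb inside or within 1 kb of noncoding genes of each type (log scale), with exact Poisson 95% intervals; the number of summits is in parentheses and the dotted line is the 4.66 per Mb of the whole location. Surroundings of tRNA genes lie far to the right of the line at 127 per Mb, and pseudogenes lie to its left at 2.79.

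Small nuclear RNA genes, which include the spliceosomal RNAs, had 10 summits within 1 kb (21.8 per Mb, 10.4 to 40.1). The summit 120 bp from Rnu5g, a U5 RNA gene, had scores of 21.2 and 20.9, and that 34 bp from Gm22513 had 21.1 and 19. Small nucleolar RNA genes had 5 (14.7 per Mb, 4.78 to 34.3). The lncRNA genes, which cover more of the location, had 330 summits inside or within 1 kb (21.1% of summits against 13% of the sequence), of which 271 lay inside. Their density was 7.56 per Mb, and their median mean percentile rank, 64.8, was close to that of all summits. Pseudogenes had 30 summits, or 1.92% against 3.20% of the sequence. Among shared summits in other locations, 0.641% at gene ends, 0.0601% in gene bodies and 0.0970% of distal summits lay within 1 kb of a tRNA gene. For lncRNA genes the share was higher among distal summits (28.7%) than in the group, and lower at gene ends (13.4%) and in gene bodies. For small nucleolar RNA genes it was 0.319% in the group and 0.349% at gene ends. It was 0.0901% in gene bodies and 0.194% of distal summits.

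Near microRNA genes there were 2 summits, at Mir3965 and at the Mir142 locus, which yields the blood cell microRNA miR-142. They made up 0.128% of the group, against 0.757% of shared summits at gene ends, 0.240% in gene bodies and 0.0970% of distal summits. The summit by Mir142b lay at position 87756191 of chromosome 11, 650 bp from the hairpin, 2003 bp from Tspoap1, with scores of 12.8 and 39.0. The summit by Mir3965 lay 190 bp from its hairpin, 8586 bp from Gtf2i, with scores of 16.8 and 37.5. The mature RNAs of these loci are given 5′ to 3′ from RefSeq on GRCm38.p6, since they name the products next to the summits, with the seed in capitals.
mmu-miR-142a-5p: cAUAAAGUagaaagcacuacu
mmu-miR-142a-3p: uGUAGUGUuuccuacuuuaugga
mmu-miR-142b: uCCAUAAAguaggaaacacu
mmu-miR-3965: uGCUUAUCagccugauguu
No seed is shared among the 4. Mir142b lies on the minus strand, opposite Mir142.

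Chromosomes differed in density. Chromosome 11 had the most summits, 169, and the highest density, 8.56 per Mb, followed by chromosome 15 with 89 summits and 7.34 per Mb. Chromosome 18 had the fewest and the lowest, 26 summits and 2.70 per Mb. The share of a chromosome's shared summits that fell in this location ranged from 13.3% on chromosome 18 to 24.9% on chromosome 15.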

How the data were processed

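KAP1 ChIP-seq summits of 2 samples were analysed. Per the submitters' processing notes, the tools were Bowtie2 2.2.9, Picard 2.1.1 and MACS2 2.2.1, on genome build mm10. The sources used here give no settings, control or threshold. The authors deposited 1 summit list per sample, not pooled, whose scores are on a −log10 scale of p-values or q-values; which is not stated, and scores were used only within a list. Positions are 1-based. Read depth is unknown, so no precision from depth can be given.

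Coding genes (20665 on chromosomes 1 to 19) came from a RefSeq table on GRCm38.p6, the assembly that mm10 is made from. Strand was taken from the RefSeq start windows, which cover 16457 of them. A mean percentile rank averages the percentiles of a summit's 2 scores within their lists. Sequence per location was computed from the gene coordinates. Intervals are Wilson or exact Poisson at 95% and cover counting error only. No test was made, because summits are not replicates.

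The members, the 16 gene lists and the naming rule were chosen with earlier results of these data known. List genes on chromosome X, or not annotated as coding, were left out. Named genes are the nearest to the 15 highest-ranking summits, the 10 with most summits, up to 4 of each list, and Il2ra, Ctla4, Ikzf2, Foxp3 and Trim28, with the noncoding genes whose start window holds a summit and the summits at each limit; small RNA genes were named after their values were seen. Alternatives covered the pairing distance, score limits, each replicate alone, gene set, distance limits and merging. Location and pairing were checked on simulated positions. The tools were Python 3.11.15, pandas 2.3.3 and scipy 1.17.1.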

Additional observations from a re-analysis of the deposited data

How the results depend on the processing

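No paired analysis was possible because the input samples, which share replicate numbers with the KAP1 samples, have no summit list. When only the highest-scoring replicate 2 summits were kept, as many as replicate 1 had, 641 summits and 604 nearest genes were left, the share of replicate 1 summits with a partner was 35.1%, the median mean percentile rank was 88.3, 17 summits lay near tRNA genes and 61.0% lay upstream. With scores at or above the list medians, there were 876 summits and 796 genes, with a median distance of 5864 bp, a rank of 83.2 and 60.3% upstream. The higher ranks of 88.3 and 83.2 follow by construction, since both settings select on the score. Pairing within 50 bp gave a partner to 79.9%. When all genes of the table set the location, 797 coding genes were nearest and the median distance was 5205 bp. By construction, limits of 2500 bp, 10 kb and 50 kb moved the share of shared summits to 16.1, 13.9 and 27.1% and the median distance to 8371, 3992 and 9438 bp. With either replicate alone, the number of summits ranged from 1824 to 12861, nearest genes from 1460 to 7983, median distance from 6219 to 6990 bp, rank from 51.8 to 52.3, share of summits from 16.3 to 20.8%, genes of the named lists from 71 to 178, summits near tRNA genes from 43 to 61 and the upstream share from 56.0 to 58.0%. The high counts came from replicate 2 alone, whose list is longer. The upstream shares count summits and do not allow for the greater length of upstream sequence. The alternatives for tRNA genes and for the upstream share were chosen after seeing the data. Read depth is not recorded, so it is unknown how far it limits either list.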

Other observations

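Chromosome X lies outside the rule, and 10 of its shared summits fell in the same location. They included a summit 1348 bp from Cd40lg, the gene of the CD40 ligand of helper T cells, scoring 4.19 in replicate 1 and 17.3 in replicate 2. Near Naa10, a protein acetyltransferase gene, lay summits at 2042 and 1615 bp (9.37 and 26.7; 13.2 and 27.7), and near Huwe1, a ubiquitin ligase gene, summits at 19271 and 15976 bp (10.7 and 15.2; 8.40 and 33.1). A summit 19303 bp from Gpr174, a lymphocyte receptor gene, had 7.64 and 13.3, and a summit 11559 bp from Tlr13, a receptor gene for bacterial RNA, had 7.53 and 30.7.

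Some summits ranked very differently in the 2 lists, and were chosen here after their values were seen. By Brf1, a gene for a subunit of the RNA polymerase III initiation factor, a summit at 4363 bp had a score of 2.74 in replicate 1 (percentile 3.90) and 24.5 in replicate 2 (percentile 97.0). By Slc9a8, a sodium-proton exchanger gene, a summit at 2257 bp had 1.68 (percentile 0.812) and 27.8 (percentile 97.7). The largest differences the other way were by Smu1, a splicing factor gene, with percentiles of 73.6 and 9.24, and by Anapc16, a gene of the anaphase-promoting complex, with 58.3 and 1.46.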
